A study of Mus musculus with 24 samples.

Results

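The AP-1 family described here consists of the 7 mouse genes that encode Fos and Jun proteins, Fos, Fosb, Fosl1, Fosl2, Jun, Junb and Jund. They were found by their gene symbol among 19938 genes measured in mouse hippocampus, and all 7 were measured, each by 1 probe. RNA came from the hippocampus, dissected from males of 8 to 9 weeks of age (C57BL/6J-129sv mixed background), and was hybridised to 24 Affymetrix whole-transcript arrays, 6 in each of 4 groups. The groups were wild type FoxO6 (WT) at basal, WT after an object learning task, FoxO6 null (mutant) at basal and mutant after learning. FoxO6 is a forkhead transcription factor. Basal mice were housed singly for at least 3 days. Mice of the learning groups were instead handled daily, habituated to the empty arena for 10 min 24 h before the task, moved to the procedure room, given 10 min with unfamiliar objects and killed 60 min later, so the task cannot be told apart from this handling. The labels call the arrays biological replicates without tying them to single animals, so the tests rest on the spread among these arrays, which may be partly technical. The comparisons address how the hippocampal response to the task depends on FoxO6.

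AP-1 is a dimer of basic leucine zipper proteins that binds DNA and sets transcription. Fos proteins need a partner such as a Jun protein to bind, whereas Jun proteins can also pair among themselves. In the hippocampus, Fos is transcribed within minutes of neuronal firing, through CREB and serum response factor at its promoter, and is widely used as a mark of recently active neurons. Its mRNA is short-lived, and Jund by contrast is made broadly without stimulation.

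The promoters are shown because the members differed in their response to the task. The window reaches only the part of each promoter next to the start, and the known serum response element of Fos lies farther upstream, outside it. The 250 bases before the annotated start come from RefSeq (GRCm38.p6), 5′ to 3′ on the strand of the gene, with matches to searched motifs in capitals. RefSeq promoters matched 6 of the 7 members, and Fosl1 had no entry in the table used. The window of Fosb, chr7:19310046-19310295 (minus), starts from a transcript inside the annotated gene and overlaps the gene by 73 bases, so it is not printed; Fosl2 is not printed because it held no motif and moved little. The intervals were chr12:85473640-85473889 (plus strand) for Fos, chr4:95052223-95052472 (minus) for Jun, chr8:84978749-84978998 (minus) for Junb and chr8:70697489-70697738 (plus) for Jund.
Fos: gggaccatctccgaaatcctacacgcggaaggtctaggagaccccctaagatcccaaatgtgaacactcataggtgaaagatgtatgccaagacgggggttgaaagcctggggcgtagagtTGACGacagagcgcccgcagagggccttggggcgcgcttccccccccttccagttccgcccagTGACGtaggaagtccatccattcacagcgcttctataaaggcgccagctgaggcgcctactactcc
Jun: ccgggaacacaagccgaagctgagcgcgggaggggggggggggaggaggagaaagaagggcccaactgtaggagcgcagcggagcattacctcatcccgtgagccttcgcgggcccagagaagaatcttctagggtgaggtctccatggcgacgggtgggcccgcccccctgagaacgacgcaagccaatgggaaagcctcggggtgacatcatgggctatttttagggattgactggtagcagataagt
Junb: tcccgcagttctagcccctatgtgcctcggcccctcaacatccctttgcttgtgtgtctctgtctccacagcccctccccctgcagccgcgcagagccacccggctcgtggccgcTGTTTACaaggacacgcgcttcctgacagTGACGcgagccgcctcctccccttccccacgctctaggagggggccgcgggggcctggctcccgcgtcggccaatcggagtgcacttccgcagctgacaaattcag
Jund: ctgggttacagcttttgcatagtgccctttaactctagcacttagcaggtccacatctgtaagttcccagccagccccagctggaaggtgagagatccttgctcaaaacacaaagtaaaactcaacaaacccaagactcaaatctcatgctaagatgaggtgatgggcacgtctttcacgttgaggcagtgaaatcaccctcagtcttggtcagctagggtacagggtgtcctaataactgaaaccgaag

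Both strands were searched for the cAMP response element TGACGTCA, which CREB binds, its core TGACG, which is contained in the full element, the AP-1 site TGACTCA, which reads as its reverse complement TGAGTCA on the opposite strand, the CArG box of serum response factor and the FoxO core GTAAACA. In Fos, the core TGACG stood at 129 to 125 and again at 66 to 62 bases before the start. In the Fosb window it stood at 60 to 56 bases before that transcript's start, which is inside the gene as annotated. Junb held TGACG at 106 to 102 bases before its start. Junb also held the FoxO core, on the opposite strand and so printed as TGTTTAC, at 135 to 129 bases before its start. The windows of Fosl2, Jun and Jund held none of these letters. Over all 32851 promoters of the table, 17.8% held TGACG, 1.55% TGACGTCA, 4.46% an AP-1 site, 1.47% the CArG box and 3.17% the FoxO core, so a TGACG match is common. G and C made up 58.4% of the Fos window, 68.8% of Fosb, 64.4% of Fosl2, 61.2% of Jun, 66.4% of Junb and 47.6% of Jund, against a median of 52.4% over all promoters.

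All values are deposited log2 values from RMA, which corrects background, equalises the arrays' quantiles and summarises a gene's probes. A difference of 1 is therefore a doubling, and levels of different genes cannot be compared. Array medians lay between 6.16 and 6.30. A gene was called changed at an adjusted p under 0.05 in limma (Benjamini-Hochberg over all genes). Foxo6 itself (chr4:120267078-120287261) was lower in the mutant by 0.73 at basal (95% interval -0.91 to -0.54, adjusted p 0.000128) and by 0.63 after learning (-0.81 to -0.44, 0.000833). Where its probe lies relative to the disrupted part of the gene was not analysed here. Its highest mutant value, 6.59, lay below the lowest WT value, 6.62. Of 13 hippocampal neuron markers, Camk2a had the highest mean (11.68 to 12.10 over the arrays). In each genotype 8 of the 13 were called lower after learning and 1 higher. Of all genes, 25.1% were called higher and 18.2% lower after learning in WT, and 22.6% and 18.7% in the mutant. The learning counts of all marker lists here stand against these shares. The log2 of the summed linear values of the 13 neuron markers was 13.28 to 13.41 at basal and 13.02 to 13.16 after learning. Choroid plexus, a neighbouring tissue, was represented by 13 of 15 listed markers, led by Ttr. The log2 of their summed linear values, in which the genes of highest value such as Ttr weigh most, was taken for each array. It spanned 10.11 to 12.46 in WT basal, 11.51 to 12.39 in mutant basal, 10.07 to 10.96 in WT learning and 10.06 to 12.10 in mutant learning arrays. None of the 13 was called between genotypes by limma (2 at basal, 0 after learning and 4 on average had an unadjusted p under 0.05, limma without adjustment); after learning 1 was called lower in WT and 5 in the mutant. With the choroid plexus marker mean as a covariate, the learning differences of Fos were 1.67 in WT and 1.83 in the mutant. Those of Fosb were 0.59 in each and those of Jund -0.34 and -0.35, and all were still called. The learning calls of Jun also held in both genotypes under every alternative, this covariate included. Effects of the covariate on Fosl1 in the mutant, on Fosl2 in WT and on the genotype difference of Jun are given beside those results. Of 10 striatal and thalamic markers, 2 were called higher and 4 lower after learning in each genotype. Slc17a6, their leading gene, was 8.77 to 9.45 in basal and 9.55 to 9.91 in learning arrays, without overlap. After learning, the called higher and lower were 2 and 4 of 8 astrocyte markers in WT and 1 and 5 in the mutant. They were 2 and 2 of 7 oligodendrocyte markers in WT and 3 and 2 in the mutant, and 4 and 1 of 7 microglia markers in WT and 3 and 1 in the mutant. Of 6 endothelial and blood markers, none was called higher in limma, 2 were lower in WT and 3 in the mutant. The part of these other cells in the results was not tested. In bulk tissue, fewer cells of a type and less RNA per cell cannot be told apart.

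**Figure D1:**
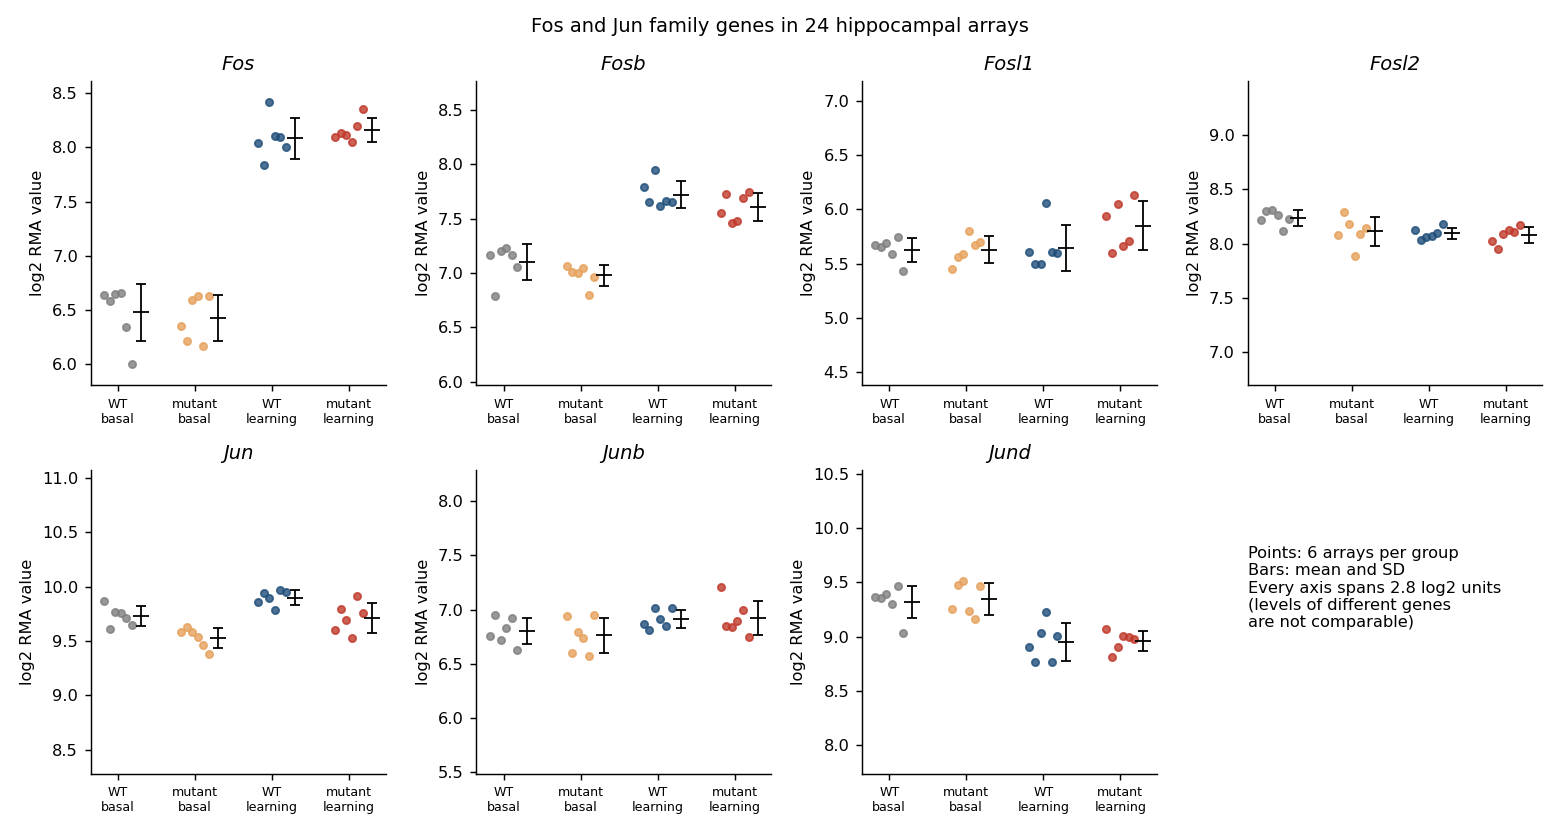
Log2 RMA value of each of the 7 genes (vertical axes, each spanning the same number of log2 units) in the 6 arrays of each group (points), with the mean and SD beside them. Fos and Fosb are higher in every learning array than in any basal array of either genotype, Jund is lower after learning without overlap in the mutant, and the other genes overlap between states.

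Among the Fos genes, Fos and Fosb rose after learning in both genotypes, whereas Fosl2 fell slightly in WT and Fosl1 was called in neither. Fos rose 3.03-fold in WT and 3.31-fold in the mutant, the largest rise of all 19938 genes in each genotype. Fosb rose 1.54-fold in WT and 1.55-fold in the mutant. Over all genes, 25.1% were called higher and 18.2% lower after learning in WT, and 22.6% higher and 18.7% lower in the mutant. Against this background, 3 of the 7 members were called higher in each genotype, 2 lower in WT and 1 lower in the mutant.

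Fos (chr12:85473890-85477274) encodes c-Fos, the founding member of the family. Its WT basal values had a lowest, median and highest of 6.00, 6.61 and 6.66, and its WT learning values 7.83, 8.07 and 8.42. In the mutant, the same 3 values were 6.17, 6.47 and 6.63 at basal and 8.05, 8.12 and 8.36 after learning. Every learning array thus lay above every basal array, and the gap between them was wider than the spread within any group. The difference was 1.60 (SE 0.104, 95% interval 1.39 to 1.81, adjusted p 3.19e-13) in WT and 1.73 (1.51 to 1.94, adjusted p 6.59e-14) in the mutant. From highest to lowest mean the groups ran mutant learning, WT learning, WT basal and mutant basal, and only the step between states separated groups that did not overlap. The exact two-sided permutation test, unadjusted, gave p = 0.00216 in each genotype, the smallest that 924 assignments allow. In WT the 6 learning arrays stood 1.35 to 1.93 above the WT basal mean, and in the mutant 1.62 to 1.93 above the mutant basal mean.

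Fosb (chr7:19302696-19310118) encodes FosB and, by splicing, the truncated ΔFosB, which accumulates after repeated stimulation; 1 probe set does not separate these forms here. WT basal values had a lowest, median and highest of 6.79, 7.17 and 7.23, and WT learning values 7.61, 7.66 and 7.95. Mutant basal values were 6.79, 7.0 and 7.06, and mutant learning values 7.46, 7.62 and 7.74. As for Fos, no learning array overlapped a basal array. The difference was 0.62 in WT (SE 0.0739, 95% interval 0.47 to 0.77, adjusted p 4.75e-08) and 0.63 in the mutant (0.48 to 0.78, adjusted p 3.43e-08). These ranked 335 and 256 by size among 19938 genes. The groups ran WT learning, mutant learning, WT basal and mutant basal from highest to lowest mean, and genotypes overlapped within each state. Over all genes, 13.8% had WT learning arrays entirely above WT basal arrays and 10.9% did so in the mutant, and 2 of the 7 members, Fos and Fosb, were among them in each genotype.

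Fosl1 (chr19:5447698-5455938), which encodes Fra1, had the lowest percentile of the family among gene means, 29.6. Its WT values had a lowest, median and highest of 5.43, 5.66 and 5.74 at basal and 5.50, 5.60 and 6.06 after learning. In the mutant they were 5.45, 5.63 and 5.80 at basal and 5.59, 5.82 and 6.13 after learning. From highest to lowest mean the groups ran mutant learning, WT learning, WT basal and mutant basal, and all of them overlapped. The WT difference was 0.02 (95% interval -0.18 to 0.21, adjusted p 0.910). The mutant difference was 0.22 (0.02 to 0.42, adjusted p 0.0678), with 5 of 6 learning arrays above the mutant basal mean; it was called when mutant learning replicate 2 (adjusted p 0.0273) or 4 (0.0408) or mutant basal replicate 4 (0.0448) was left out, after a repeated quantile normalization (0.0485), and with the choroid plexus marker mean as a covariate (difference 0.31, adjusted p 0.0184). Over all its alternatives, adjusted p ran from 0.0184 to 0.192.

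Fosl2 (chr5:32136472-32157840), which encodes Fra2, had WT basal values with a lowest, median and highest of 8.11, 8.25 and 8.31 and WT learning values of 8.04, 8.09 and 8.18. In the mutant the values were 7.89, 8.12 and 8.29 at basal and 7.95, 8.10 and 8.17 after learning. All 6 WT learning arrays lay below the WT basal mean, although all groups overlapped in the order WT basal, mutant basal, then WT and mutant after learning. Fosl2 fell by 0.14 in WT (95% interval -0.25 to -0.03, adjusted p 0.0339), and its mutant difference was -0.03 (-0.14 to 0.08, adjusted p 0.680). The WT call was lost, with adjusted p from 0.0549 to 0.0764, when WT learning replicate 2, 3 or 4 or WT basal replicate 2, 3 or 4 was left out. With the choroid plexus marker mean as a covariate the WT difference was -0.12 (adjusted p 0.103). Without the 3 WT basal arrays of highest Ttr (11.65 to 12.11, against 8.80 to 9.64 in the other 3) it was -0.11 (adjusted p 0.266), with fewer arrays to test. The part of choroid plexus in the Fosl2 difference was not tested.

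Among the Jun genes, Jun rose modestly in both genotypes, Jund fell in both, and Junb was not called. Jun (chr4:95049036-95052222) encodes c-Jun, the usual partner of c-Fos, which JNK kinases phosphorylate. Its WT values had a lowest, median and highest of 9.61, 9.73 and 9.87 at basal and 9.79, 9.92 and 9.97 after learning. Its mutant values were 9.38, 9.56 and 9.63 at basal and 9.53, 9.72 and 9.92 after learning. All 6 learning arrays of each genotype stood above the basal mean of that genotype, although the ranges overlapped. The difference was 0.17 in WT (95% interval 0.06 to 0.29, adjusted p 0.0109) and 0.19 in the mutant (0.07 to 0.30, adjusted p 0.0068). The groups ran WT learning, WT basal, mutant learning and mutant basal, and only WT learning and mutant basal did not overlap.

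Junb (chr8:84976909-84978748) encodes a protein that can oppose c-Jun. Its WT values had a lowest, median and highest of 6.63, 6.79 and 6.95 at basal and 6.81, 6.89 and 7.02 after learning. The mutant values were 6.57, 6.76 and 6.95 at basal and 6.75, 6.87 and 7.20 after learning. The ranges overlapped in both genotypes, yet 6 of 6 WT and 5 of 6 mutant learning arrays stood above the basal mean of their genotype. The WT difference was 0.11 (95% interval -0.05 to 0.27, adjusted p 0.260) and the mutant difference 0.16 (-0.0015 to 0.32, adjusted p 0.108). By mean, mutant learning stood highest, then WT learning, WT basal and mutant basal, and no neighbours were apart.

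Jund (chr8:70697739-70700616) fell 1.29-fold in WT and 1.31-fold in the mutant after learning. Its WT values had a lowest, median and highest of 9.03, 9.36 and 9.47 at basal and 8.77, 8.95 and 9.23 after learning. In the mutant they were 9.16, 9.36 and 9.51 at basal and 8.81, 8.99 and 9.07 after learning. The mutant groups did not overlap, and in WT the highest learning array lay above the lowest basal array. The share of all genes with learning arrays entirely below basal arrays was not counted, so how common such a gap is remains unknown. The WT difference was -0.37 (95% interval -0.52 to -0.22, adjusted p 0.000154), and the mutant difference -0.39 (-0.54 to -0.24, adjusted p 8.1e-05). No learning array of either genotype stood above the basal mean. The groups ran mutant basal, WT basal, mutant learning and WT learning, with overlap of the genotypes within each state.

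**Figure D2:**
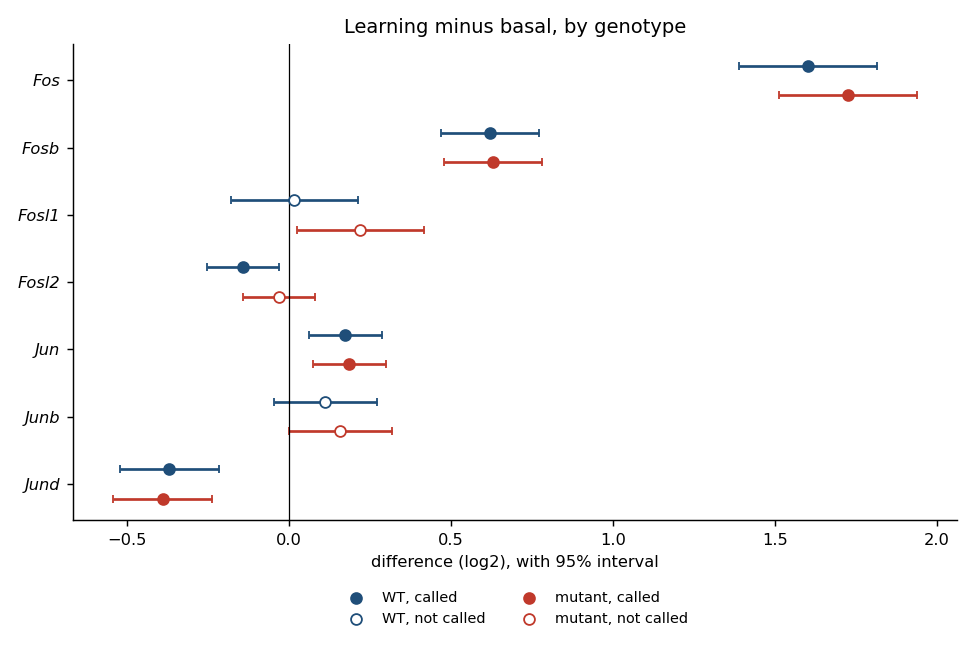
Learning minus basal difference in log2 units (horizontal axis) of the 7 genes in WT (blue) and mutant (red), with 95% intervals; filled points were called in limma. Fos stands at 1.60 and 1.73 and Fosb at 0.62 and 0.63, Jun lies above 0 and Jund below 0 in both genotypes, and Fosl2 was called lower in WT alone.

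The response to the task was then compared between genotypes by the interaction, the mutant difference less the WT difference. No member was called, and neither was any of the 19938 genes in limma (0% called); at an unadjusted p under 0.05 there were 0 members and 510 genes, limma without adjustment. The interaction was 0.12 for Fos (95% interval -0.18 to 0.43), 0.01 for Fosb (-0.20 to 0.23) and 0.01 for Jun (-0.15 to 0.17). For Fosl1 it was 0.20 (-0.07 to 0.48), for Fosl2 0.11 (-0.05 to 0.27), for Junb 0.05 (-0.18 to 0.27) and for Jund -0.02 (-0.24 to 0.20). All 7 intervals include 0, so a difference between genotypes in the response to the task was not detectable within these limits. That Fosl2 was called in WT and not in the mutant is therefore no shown difference between them.

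Between genotypes, Jun was the 1 member called, and it was lower in the mutant. At basal no member was called in limma, against 0.1% of all genes (20 of 19938), and after learning none was called against 0.0752% (15). At an unadjusted p under 0.05, limma gave 2 members in each state, Fosl2 and Jun at basal and Fosl1 and Jun after learning, with 898 and 1461 of all genes. Averaged over both states, Jun was lower in the mutant by 0.19, or 1.14-fold (SE 0.0388, 95% interval -0.27 to -0.11, adjusted p 0.0154), against 0.391% of all genes called (78). All 6 mutant basal arrays and 5 of 6 mutant learning arrays lay below the WT mean of their state. The differences in single states were -0.20 at basal (-0.31 to -0.09, adjusted p 0.351) and -0.19 after learning (-0.30 to -0.07, adjusted p 0.334).

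The Jun call held when each array was left out in turn (adjusted p 0.00339 to 0.0324). Some neuron markers were called between genotypes in the same samples, and no marker of the other lists was. Of the 13 hippocampal neuron markers, 1 was called lower in the mutant at basal, 1 after learning and 3 on average, with 6 of 13 signed higher on average and a median of -0.04; their part in the Jun difference was not tested. Of the choroid plexus markers, all 13 had a higher mean in the mutant at basal, by a median of 0.20, and after learning, by a median of 0.15. With their mean as a covariate the Jun difference was -0.19 and the call was lost (adjusted p 0.0683), and without the 3 WT basal arrays of highest Ttr it was -0.18 (adjusted p 0.0804). Over all its alternatives the difference ran from -0.21 to -0.17, and adjusted p from 0.00256 to 0.0804.

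**Figure D3:**
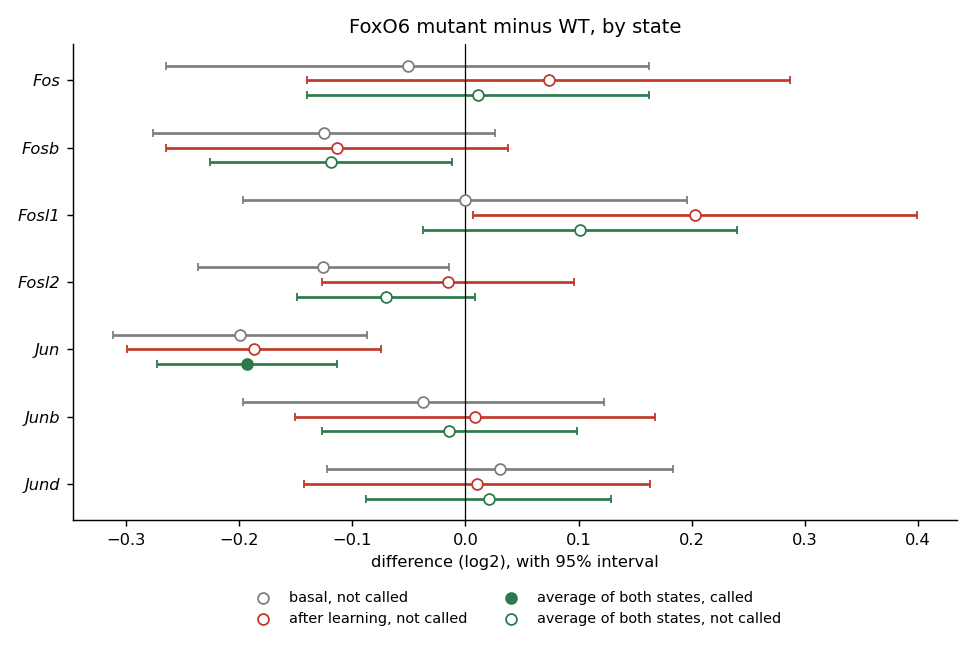
Mutant minus WT difference in log2 units (horizontal axis) of the 7 genes at basal (grey), after learning (red) and averaged over both states (green), with 95% intervals; filled points were called in limma. Jun at -0.19 on average is the single filled point, and Fosb lies at -0.12 without being called.

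The other members differed less than Jun on average over states. After learning alone, Fosl1 was 0.20 higher in the mutant (95% interval 0.01 to 0.40, adjusted p 0.666 in limma). Jun in that state was -0.19 (adjusted p 0.334 in limma), and neither gene was called there. Fosb averaged -0.12 in the mutant (95% interval -0.23 to -0.01, adjusted p 0.493), with all 6 mutant basal arrays and 4 of 6 mutant learning arrays below the WT mean. Fos averaged 0.01 (-0.14 to 0.16) and Jund 0.02 (-0.09 to 0.13). Junb averaged -0.01 (-0.13 to 0.10), Fosl1 0.10 (-0.04 to 0.24) and Fosl2 -0.07 (-0.15 to 0.01). The intervals exclude an average genotype difference in Fos beyond 0.16 on the log2 scale in either direction.

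Jun lies on chromosome 4, as does Foxo6, 25.2 Mb away (GRCm38.p6). Of the 78 genes called on average over both states, 35, Foxo6 and Jun included, lay on chromosome 4, which holds 5.83% of the genes with a position. Within 10 Mb of Foxo6, 15 of 253 genes were called, Foxo6 itself among them, between 10 and 20 Mb 16 of 249, between 20 and 30 Mb, where Jun lies, 3 of 153, and farther away 1 of 506. Of the 37 genes within 5 Mb of Jun, 2 were called, Jun included, and the median difference was -0.02. The nearest called gene to Jun was Pgm1, 4.91 Mb away, at -0.23. The null allele and the chromosome 4 segment that travels with it in a mixed background cannot be told apart as the source of the Jun difference. The other 6 members lie on chromosomes 5, 7, 8, 12 and 19.

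**Figure D4:**
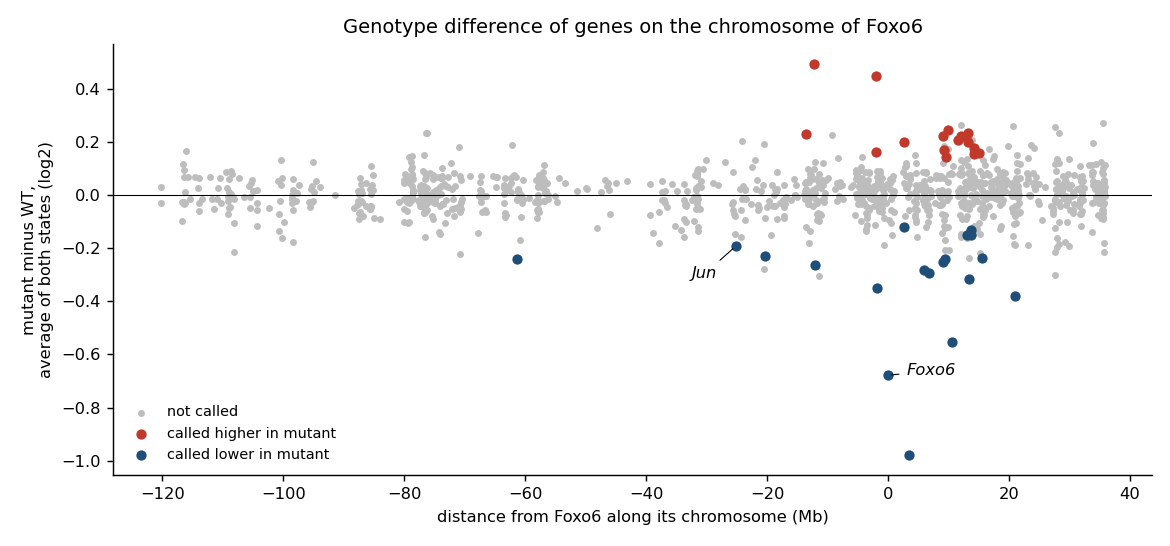
Average genotype difference in log2 units (vertical axis) of each gene on the chromosome of Foxo6 against its distance from Foxo6 in Mb (horizontal axis); red points were called higher in the mutant and blue points lower. Called genes lie mostly within 20 Mb of Foxo6, and Jun, at -0.19 and 25.2 Mb, is among the 3 called between 20 and 30 Mb.

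The other genes of the pathway were described by lists, without a test on any list. Over all genes, 25.1% were called higher and 18.2% lower after learning in WT, and 22.6% and 18.7% in the mutant. The counts of each list below stand against these shares. Genes were named by smallest p in each genotype separately, so some are given for a single genotype. Their values in the other genotype are not given here, so a response limited to a single genotype is not shown for them. Of 25 other immediate early transcription factors, induced by activity without new protein synthesis, 16 were called higher and 1 lower after learning in WT (median 0.37) and 15 and 1 in the mutant (median 0.21), against a median of 0.03 over all genes in each genotype. Egr2 rose by 1.07 in WT (adjusted p 6.29e-10) and its mutant rise was 1.03 (1.17e-09), and the nuclear receptor Nr4a1 by 0.72 (4.59e-08) and 0.77 (1.16e-08). Egr1 rose by 0.62 in the mutant (6.67e-09) and Ier3 by 0.56 in WT (1.06e-07). Egr3 was the 1 gene of this list called lower, falling by 0.20 in WT (0.000559) and by 0.23 in the mutant (0.00013). A further 8 genes in WT and 9 in the mutant were not called, and 22 and 23 of the 25 were signed higher. Fos stood above every gene of this list in both genotypes.

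AP-1 partner bZIP factors, which can dimerise with Fos or Jun proteins or bind related sites, went both ways. Of 24 measured, 8 were called higher and 7 lower in WT (median -0.02), and 6 and 5 in the mutant (median 0.05). The all-gene shares called higher and lower were 25.1% and 18.2% in WT, and 22.6% and 18.7% in the mutant. Crem, the cAMP response modulator, rose by 0.62 in WT (adjusted p 1.6e-07), and by 0.55 with the mutant arrays (1.16e-06); Crem, Atf3 and Maff also stand on the immediate early list. Nfe2l2, the oxidative stress factor, rose by 0.51 (1.07e-06, WT) and 0.46 (5.32e-06, mutant), and Creb1, which binds the cAMP response element, by 0.35 (8.59e-06) and 0.32 (3.04e-05). Atf7 fell in both genotypes, by 0.48 in WT (7.63e-10) and 0.50 in the mutant (4.23e-10). Atf6b fell by 0.39 (1.53e-07) and by 0.37 (3.31e-07), and Nfe2l1 fell by 0.24 (5.59e-05) and by 0.30 (2.41e-06).

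Of 22 measured upstream kinases and factors, 4 were called higher and 10 lower in each genotype (median -0.04 in WT and -0.08 in the mutant). Mef2d, a factor of activity-dependent transcription, fell the most of this list, by 0.78 in WT (adjusted p 7.86e-15), with a mutant value of -0.75 (1.45e-14). Crtc1, the CREB coactivator, fell by 0.65 (1.22e-11) and by 0.60 (5.78e-11). The acetyltransferase gene Crebbp fell by 0.45 in WT (2.89e-09) and Mrtfb, a cofactor of serum response factor, by 0.43 in the mutant (2.6e-09). Mapk8, which encodes a JNK, rose by 0.27 in WT (2.34e-06) and 0.17 in the mutant (0.0011). Camk4, a CREB kinase, rose by 0.25 (6.01e-05) and 0.20 (0.00087), and Elk4, a partner of serum response factor, by 0.31 (0.000754) and 0.26 (0.00374).

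Of 13 measured regulators of Fos and Jun protein, 4 were called higher and 5 lower in WT and 3 and 6 in the mutant (median -0.05 in each). The shares over all genes were 25.1% higher and 18.2% lower in WT, and 22.6% and 18.7% in the mutant. Cops5, a c-Jun coactivator and signalosome subunit, rose by 0.56 in WT (adjusted p 1.24e-06) and 0.44 in the mutant (4.47e-05). Itch, a ubiquitin ligase for Jun proteins, rose by 0.26 (3.78e-05) and 0.20 (0.000859), and Cul4a, a ligase scaffold, by 0.22 (0.00301) and 0.31 (5.21e-05). The JNK scaffold genes fell, Mapk8ip2 by 0.65 (8.8e-17) and 0.69 (1.93e-17) and Mapk8ip3 by 0.38 (1.9e-11) and 0.41 (4.43e-12). Men1, whose product binds JunD, fell by 0.28 in WT (5.64e-08) and by 0.37 in the mutant (4.27e-10).

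Of 25 measured AP-1 target genes, 9 were called higher and 2 lower in each genotype (median 0.07 in WT and 0.12 in the mutant). The metallothionein genes rose, Mt2 by 0.79 in each genotype (adjusted p 4.2e-12 in WT and 5.04e-12 in the mutant) and Mt1 by 0.56 (4.13e-09) and 0.60 (9.85e-10). Bdnf, a neurotrophin gene, rose by 0.64 in WT (2.05e-09) and Calb1, a calcium buffer gene, by 0.49 in the mutant (2.25e-08). Each was named by its p in that genotype, and no gene of this list was called in the interaction. Tgfb1 fell in both, by 0.44 (8.83e-06, WT) and 0.56 (1.93e-07, mutant). The matrix protease gene Mmp9 fell by 0.30 in WT (0.00679) and Vim by 0.12 in the mutant (0.0216). These genes are known targets of other factors as well.

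Over the 106 different genes of these 5 lists, none was called in limma in any genotype comparison or in the interaction. At an unadjusted p under 0.05, limma gave 5 of them at basal (4.72%, against 4.5% of all genes), 6 after learning (5.66% against 7.33%), 11 on average (10.4% against 8.86%) and 1 for the interaction (0.943% against 2.56%), shares near or below the background.

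**Figure D5:**
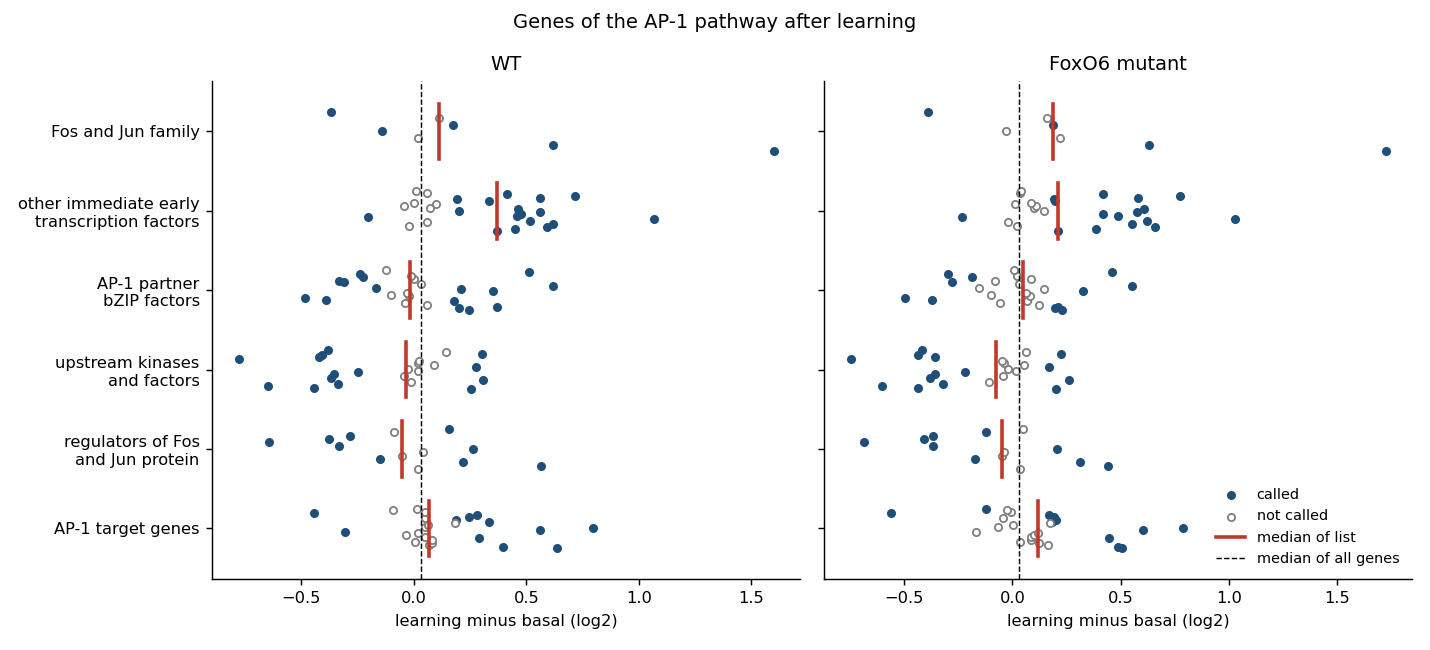
Learning minus basal difference in log2 units (horizontal axes) of the 7 family genes and of the 5 pathway lists in WT (left) and mutant (right); filled points were called, red bars are list medians and the dashed line is the median of all genes. The immediate early list has a median of 0.37 in WT and 0.21 in the mutant, with a median interaction of 0.0016 gene by gene. Fos lies to the right of every other gene shown.

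The pattern over the 24 arrays was compared with every other gene, for the 4 members called in both genotypes, by the root mean square difference of log2 values after each gene's mean was subtracted. For Fos, whose SD over the arrays was 0.87, the nearest genes were Imp3 at 0.253, Sdhaf4 at 0.269 and Trim13 at 0.308. For Fosb, with an SD of 0.347, they were Zfp1 at 0.106, Cdc5l at 0.114 and Crnkl1 at 0.116. Fos and Fosb themselves were 0.551 apart, since Fos moved further. For Jun, with an SD of 0.164, they were Hace1 at 0.0914, Ddx42 at 0.0939 and Ago4 at 0.0944. For Jund, with an SD of 0.236, they were Dusp8 at 0.0655, H4f16 at 0.0863 and Map2k2 at 0.0886. All share the same arrays and the same change of state.

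Within groups, the relation between members could hardly be tested at this size: 720 pairings allow no p below 0.00139, exact permutation, and a single relation among 84 cannot adjust below 0.117. Over the 21 pairs of members in 4 groups of 6 arrays, 45 of 84 Pearson correlations were above 0, and 1 had an unadjusted p under 0.05 by exact permutation. That relation was Fosl1 with Jund in WT basal arrays, with r = 0.99 (exact permutation p = 0.00139, adjusted 0.117, the floor) and Spearman's rho = 1 (exact permutation p = 0.00278, adjusted 0.233). Without the 2 arrays farthest from the Fosl1 median, r was 1.00. Fos and Fosb gave r = 0.76 in WT learning arrays (exact permutation p = 0.114, rho 0.31), which turned to -0.35 without the 2 farthest arrays.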

How the data were processed

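Each of 24 arrays contributed 1 column of log2 values, deposited by the authors after RMA, per the submitters' processing notes (version and chip file not given in the sources used here). Of 35511 probes, 21789 carry 1 gene symbol in the platform annotation, 1621 several and 12101 none. For each gene the probe with 1 symbol and the highest mean was kept, giving 19938 genes; dim genes were kept. In R 4.3.3, limma 3.58.1 fitted 4 group means over all 24 arrays (20 residual degrees of freedom), with eBayes and a mean-variance trend. The 6 comparisons were learning minus basal in each genotype, mutant minus WT in each state and on average, and the interaction. P-values are two-sided, Benjamini-Hochberg adjusted over all genes, called under 0.05. The number of arrays limits the precision: on simulated data, 40.3% of WT learning differences of 0.25, 92.5% of 0.5 and 100% of 1 were found. Those data held 67, 67 and 66 changed genes of these sizes among 19938. In the measured WT learning comparison 25.1% of genes were called higher and 18.2% lower. The adjustment depends on the share of changed genes, so these percentages need not hold for that comparison.

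The members and lists were chosen with earlier results of these data known. Named were all members, up to 3 called genes of smallest p per list and direction in each learning comparison, and up to 2 in each genotype comparison and the interaction. The 3 genes of nearest pattern were named for each member called in both genotypes. Of 196 listed pathway and marker genes, 19 were not measured. Motifs were searched in RefSeq promoters (GRCm38.p6), and proteins were not used here. Alternatives covered scaling, moderation, array weights, the arrays and probes tested, a filter on dim genes, exact permutation, the replicate number as a block, the choroid plexus markers as covariate and each array left out.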

Additional observations from a re-analysis of the deposited data

Results flagged for a closer look

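In 28 sets of 6 arrays (7 members in 4 groups), 2 held an array that stood apart from the others of its group by more than Dixon's 95% critical value for the gap as a share of the group's range; chance gives about 1 in 20. Fosb in mutant basal replicate 5 was 6.79, the lowest of its group, with the next array at 6.96, a gap of 0.626 of the range. Fosl1 in WT learning replicate 4 was 6.06, the highest of its group, with the next array at 5.61, a gap of 0.799 of the range.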

How the results depend on the processing

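Over the 43 results on the members and their 1123 alternatives, 1106 were counted as keeping their side of the threshold, 80 of them uncalled values that changed sign. A call was lost in 10 and gained in 7, and no called value changed direction. The 1106 include 1 alternative of the relation of Fosl1 and Jund, for which no p was computed. The number of members called between genotypes was 1 at basal and 1 after learning by the exact permutation test without adjustment, against 0 each; this was Jun (p = 0.00433 and 0.0173, exact permutation). On average over states the number fell from 1 to 0 with the choroid plexus covariate, and to 0 without the 3 WT basal arrays of highest Ttr, an alternative chosen after seeing the data. Replicate numbers are not stated to pair the arrays, and the deviations of same-numbered arrays correlated at -0.30 to 0.26, which cannot show whether they were paired. With the replicate block, 5 members were called after learning in WT and 4 in the mutant, and Jun on average (adjusted p 0.0269), as without it. Over all genes, the 20 calls at basal became 7 without the trend, 51 with array weights, 11 with only the arrays compared, 6 without the 3 WT basal arrays, and 6 to 26 with each array left out; the 15 after learning became 7 to 19, and 8 to 16 with each array left out; the 78 on average became 44 with the covariate and 41 without the 3 arrays. On simulated data, 23.9% of interactions of 0.25 were found, 65.7% of 0.5 and 100% of 1, so most of the smallest were missed there. Those data held 67, 67 and 66 changed genes of these sizes, whereas no measured gene was called in the interaction. The adjustment depends on the share of changed genes, so these percentages need not hold for the measured interaction. The cause of the changes in calls between alternatives was not tested. With 4 arrays left, the relation of Fosl1 and Jund cannot be tested.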
